A study of Mus musculus with 8 samples.

Results

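The replication-dependent histone genes code for the bulk of chromatin protein, the linker histone H1 and the core histones H2A, H2B, H3 and H4. They were examined in LSCs, the leukaemic stem cells of a mouse model of chronic myeloid leukaemia. The rows taken were those whose symbol starts with Hist1h, Hist2h, Hist3h or Hist4h. Only 9 of the 15576 rows of the count table carry such a symbol, because the table lists most of the family under newer names. A further 58 rows have a newer symbol whose older RefSeq name starts that way, so 67 rows were read in all and the 9 are also counted apart. By class these were 5 H1, 18 H2A, 19 H2B, 12 H3 and 13 H4 rows, and 53 of the 67 belong to Hist1, 10 to Hist2, 3 to Hist3 and 1 to Hist4. The family members H1f6, H2ac1 and H2ac14 have no row and were not analysed here.

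Bulk RNA-seq was compared between 4 CML and 4 CML-TKI libraries. All mice were C57BL/6 animals that the study describes as double transgenic for BCR-ABL and SCL-tTA, in which the transactivator driven by the SCL promoter switches on BCR-ABL in stem cells once tetracycline is withdrawn. CML mice were untreated, and CML-TKI mice received the tyrosine kinase inhibitor imatinib by gavage on alternate days, for 4 weeks by one label and 30 days by another. The labels give its dose as 400 mg/kg, whereas the study's text gives a lower dose for these LSCs, so the dose is uncertain. Ages are not given in the labels. The sort label of all 8 libraries reads Lin-Sca1+cKit+Flt3-CD150-CD48+, whereas the study defines LSCs as CD150-positive and CD48-negative. The CML libraries are called CML 1, 2, 3 and 5 after their columns, and no label gives the number 5. Nothing states that the libraries came from separate animals, so p-values measure only the spread between these libraries.

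Replication-dependent histone mRNAs are made when DNA is copied, and unlike other mRNAs they end in a short stem-loop in place of a poly(A) tail. The protein SLBP binds the stem-loop and carries the message through processing, translation and decay. The genes sit in clusters, often with an H2A and an H2B gene facing away from a shared promoter, and several copies code for the same protein. In bulk RNA, fewer cells in S phase and less histone mRNA per cell cannot be told apart.

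The stem-loop is shown because it is the feature the family shares outside its coding sequence. One window is given for each class, from its most abundant row with the motif, read from GENCODE M21 transcripts of GRCm38, with the stem-loop in capitals:
H1f3: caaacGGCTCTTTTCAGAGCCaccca
H2ac18: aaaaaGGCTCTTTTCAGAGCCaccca
H2bc6: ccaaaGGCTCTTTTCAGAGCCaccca
H3c2: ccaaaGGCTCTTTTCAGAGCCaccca
H4c4: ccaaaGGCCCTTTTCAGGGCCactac
The letters searched were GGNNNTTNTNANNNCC on the transcript strand. They were found in 45 of the 51 members whose annotated 3' UTR exceeds 30 bases, with 8 different stem-loops. The one shown for H1f3, H2ac18, H2bc6 and H3c2 is the most frequent, in 26 members, and the one shown for H4c4 was in 7. In the first 100 bases after the stop codon, the letters were in 87% of the members' 54 protein-coding transcripts with such a UTR and in 0.183% of 43650 other protein-coding transcripts. In 22 members the annotated transcript runs more than 100 bases past the stem-loop, by 4884 bases in H1f3 and 1861 in H2bc6.

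A promoter is shown for H2bc8 and H2ac8, an H2B and an H2A gene whose start sites lie within 1 window on chromosome 13, as an example of such a pair. The sequence is the plus strand of chr13:23571150-23571449 in the RefSeq promoter table (GRCm38.p6), with motif matches in capitals:
H2bc8: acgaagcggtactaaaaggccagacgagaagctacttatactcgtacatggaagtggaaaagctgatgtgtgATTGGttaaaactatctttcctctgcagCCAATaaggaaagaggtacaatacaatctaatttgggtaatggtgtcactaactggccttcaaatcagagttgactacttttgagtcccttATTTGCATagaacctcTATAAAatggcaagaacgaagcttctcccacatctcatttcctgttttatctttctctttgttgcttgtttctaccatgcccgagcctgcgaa
The motifs were the octamer ATTTGCAT, CCAAT and TATAAA, each on both strands, and none of these lies within another. The octamer was in 41.2% of 17 H2B and 35.3% of 17 H2A promoters, in none of the 5 H1, 10 H3 and 12 H4 promoters, and in 1.74% of all 32851 promoters. CCAAT was in all promoters of the H1, H2A, H2B and H3 members and in 25% of those of H4, against 37.4% of all promoters. TATAAA was in 55.7% of the 61 member promoters and 13.6% of all. In CML 1, 2, 3 and 5, H2bc8 had 142, 155, 123 and 463 CPM (counts relative to the library's total after TMM scaling in edgeR, not divided by length), and in CML-TKI 1 to 4 it had 106, 252, 139 and 201. Its partner H2ac8 had 65.6, 79.6, 69.3 and 216 CPM, then 52.8, 115, 155 and 108. Both were highest in CML 5, and neither passed the test (log2 fold change -0.34 ± 0.45 (SE) for H2bc8 and -0.01 ± 0.45 for H2ac8, edgeR adjusted p = 0.693 and 0.991). Without CML 5 the signs turned, to 0.31 for H2bc8 and 0.57 for H2ac8 (adjusted p = 0.578 and 0.352).

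Total counts ranged from 4939644 to 8620101 in the CML and from 1041552 to 5104268 in the CML-TKI libraries, and 3 counts, taken as the detection floor, equal 0.348 to 2.88 CPM. This floor covers counting error only. CML 1, 2 and 3 were close to each other (chi-square per degree of freedom of their counts 3.99 to 5.95), whereas the 3 pairs with CML 5 had 90 to 94.1 and the CML-TKI pairs 27.2 to 68.9. This measure grows with depth, so it does not rank the CML-TKI pairs against the pairs with CML 5. The ribosomal RNA row Rn45s held 38.3% of the counts of CML 5, 20.2% to 23.1% in CML 1 to 3 and 9.23% to 22.5% in CML-TKI. Counts of calls, class sums and the most abundant members are therefore given with and without CML 5.

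Of the 67 histone rows, all of which were tested, 1 passed an adjusted p of 0.05 as higher in CML-TKI and 0 as lower (edgeR quasi-likelihood test, 11937 genes). Over all genes 10.2% were called, 6.29% as higher and 3.93% as lower. The called row was Hist1h2al, 1 of the 9 rows with an older symbol, and none of the 58 others was called. With no adjustment, 2 of the 67 rows had a p under 0.05, against 25.7% of all genes. The median log2 fold change of the 67 rows was -0.02, with 30 estimates above 0 and 37 below, and the median of all genes was -0.00. Groups did not overlap in 1 row, against 23.4% of all genes.

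Without CML 5 the family looked different. Then 62 of the 67 estimates were above 0, their median was 0.68 (0.01 over all 12250 genes tested), 7 rows were called higher and 0 lower, while 4.48% of all genes were called higher and 2.1% lower. The 7 rows were Hist1h2al, H3c8, H3c11, H3c13, H4c2, H4c14 and Hist1h4n. The CML group is then only CML 1 to 3, which lie close together, and the part of that narrow spread in the calls was not tested. Every CML-TKI library was above CML 1, 2 and 3 in 22 of the 67 rows, against 13.6% of all genes. Leaving out CML 5 thus moved the count of calls from 1 to 7, and limma-voom with quality weights, which gives libraries unlike their group less weight, called 20 rows higher and 0 lower on all 8 libraries. That fit also called more of all genes, 10.5% as higher and 11% as lower.

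**Figure D1:**
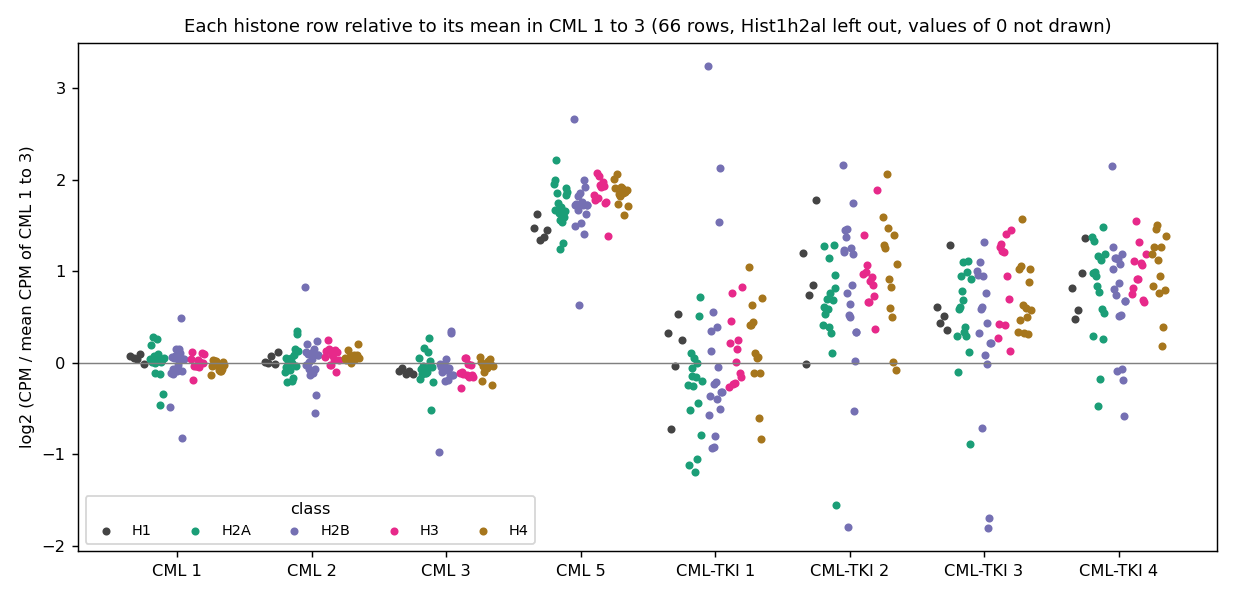
Each point is 1 of 66 histone rows (Hist1h2al left out) in 1 library, as log2 of its CPM over its mean CPM in CML 1 to 3, coloured by class. CML 5 lies above the other CML libraries for every row shown (median ratio 3.37), CML-TKI 1 scatters around 0 (median ratio 0.968) and CML-TKI 2 to 4 lie mostly above it (median ratio 1.78).

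Most but not all rows moved alike across the libraries, which was not tested. CML 5 was the highest CML library in 66 of the 67 rows and the highest of all 8 libraries in 60, with a median of 3.36 times the mean of CML 1 to 3. The exception in the CML group was Hist1h2al. CML-TKI 1 was the lowest CML-TKI library in 55 rows and stood at a median of 0.97 times the mean of CML 1 to 3. CML-TKI 2, 3 and 4 were all above CML 1, 2 and 3 in 50 rows, at a median of 1.81 times. The rows held 0.690%, 0.741%, 0.677% and 1.96% of all counts in CML 1, 2, 3 and 5, and 0.722%, 1.34%, 0.979% and 1.42% in CML-TKI 1 to 4. With Rn45s left out of the total, CML 5 still stood apart at 3.17%, against 0.849% to 0.932% in CML 1 to 3 and 0.872% to 1.65% in CML-TKI.

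**Figure D2:**
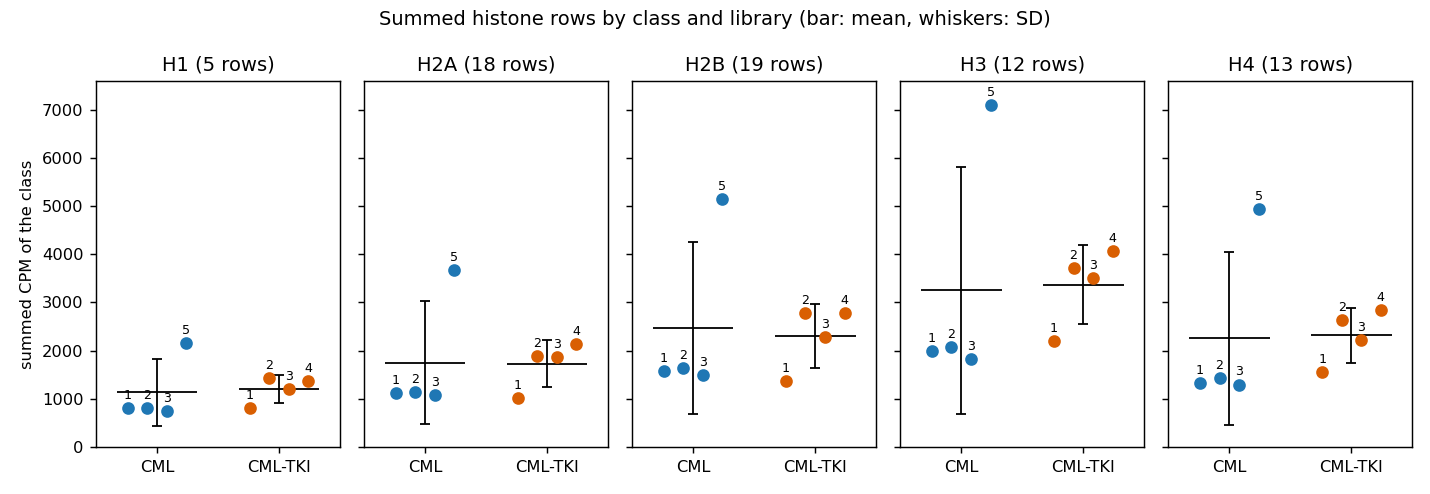
Summed CPM of the rows of each histone class in each library, with library numbers beside the points, group means as bars and SDs as whiskers. CML 5 is the highest point in all 5 classes, and CML-TKI 1 is the lowest CML-TKI point in all 5.

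H1 histones bind the linker DNA between nucleosomes. The 5 H1 rows summed to 815, 805, 736 and 2168 CPM in CML 1, 2, 3 and 5 and to 804, 1438, 1205 and 1369 CPM in CML-TKI 1 to 4. The groups overlapped, with a log2 ratio of the group means of 0.09, and of 0.61 without CML 5. The 3 most abundant rows were H1f3, H1f2 and H1f4. H1f2, the H1.2 subtype, had 230, 221, 213 and 684 CPM in CML and 134, 220, 299 and 309 CPM in CML-TKI, so CML-TKI 1 was below all other libraries. H1f3 had 220, 225, 196 and 541 CPM and then 209, 358, 305 and 320 CPM. H1f4 had 157, 145, 138 and 382 CPM and then 213, 266, 188 and 291 CPM. None of the 3 passed the test: the log2 fold changes were -0.49 ± 0.43 (SE), 0.01 ± 0.35 and 0.22 ± 0.35, with edgeR adjusted p of 0.522, 0.989 and 0.742. Without CML 5 they were 0.11, 0.47 and 0.70 (adjusted p = 0.863, 0.211 and 0.0724).

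Shares within the H1 class are given for a pair of rows. H1f2 held 28.3%, 27.5%, 28.9% and 31.6% of the H1 sum in CML 1, 2, 3 and 5 and 16.6%, 15.3%, 24.8% and 22.6% in CML-TKI 1 to 4. H1f5, the H1.5 subtype, held 13.5%, 14.9%, 13.7% and 14% in CML and 16.3%, 26.5%, 22.4% and 20.8% in CML-TKI. In both rows the groups did not overlap, and the share of H1f2 was lower and that of H1f5 higher in CML-TKI. These rows were chosen after their values were seen and were not tested, and shares did not overlap in 26.9% of all members, near the 23.4% of all genes whose CPM did not overlap.

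H2A and H2B pair with each other in the nucleosome. The 18 H2A rows summed to 1118, 1133, 1073 and 3673 CPM in CML and to 1023, 1890, 1874 and 2134 CPM in CML-TKI, with a log2 ratio of means of -0.02, and of 0.63 without CML 5. The 3 leading rows, H2ac18, H2ac15 and H2ac20, together held 52.5% to 57.4% of the sum in every library. H2ac18 alone had 378, 386, 367 and 1268 CPM and then 341, 613, 650 and 728 CPM. H2ac15 had 112, 107, 102 and 388 CPM and then 103, 161, 206 and 212 CPM, and H2ac20 had 106, 106, 94.5 and 302 CPM and then 106, 226, 219 and 229 CPM. In all 3, CML 5 was the highest of the 8 libraries and CML-TKI 1 was the lowest CML-TKI library. Their log2 fold changes were -0.04 ± 0.44 (SE), -0.06 ± 0.46 and 0.36 ± 0.42, and none passed the test (edgeR adjusted p = 0.968, 0.958 and 0.644). Without CML 5 they were 0.62, 0.66 and 0.92 (adjusted p = 0.183, 0.171 and 0.0931).

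Hist1h2al was the exception in the class and in the family. It had 0.541, 0.192, 1.34 and 1.09 CPM in CML 1, 2, 3 and 5, from 4, 1, 7 and 8 counts, and 21.3, 68.4, 73 and 89.4 CPM in CML-TKI 1 to 4, from 113, 222, 67 and 346 counts. The groups did not overlap. Means were 0.792 ± 0.522 (SD, n = 4) in CML and 63 ± 29.2 CPM (SD, n = 4) in CML-TKI, and the log2 fold change was 6.26 ± 0.64 (SE, edgeR adjusted p = 0.000804). The row passed the filter on low counts only through the CML-TKI libraries, so it could enter the test only if it differed. With only 1 to 8 counts in each CML library the size of the fold is poorly set, and CML 5 did not stand apart in this row.

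RefSeq names Hist1h2al as H2af-ps2, a transcribed pseudogene at 51200084 to 51203066 on chromosome 13 (GRCm38), which lies apart from the other 52 Hist1 rows, all between 21 and 24 Mb of that chromosome. GENCODE gives it 339 bases with no coding sequence. Over these bases it matched the coding sequence of H2ac18, and of the identical H2ac19, at 99.4%, that of H2ac20 at 98.2% and that of the replacement variant H2ax at 90.9%. Bases 61 to 120 of its transcript are shown beside the matching coding bases 76 to 135 of the other genes, with bases that differ from Hist1h2al in capitals, because they show how little sequence tells these rows apart:
Hist1h2al: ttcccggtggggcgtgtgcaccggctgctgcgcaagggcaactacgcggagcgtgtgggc
H2ac18: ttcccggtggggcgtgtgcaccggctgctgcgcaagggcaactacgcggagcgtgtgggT
H2ax: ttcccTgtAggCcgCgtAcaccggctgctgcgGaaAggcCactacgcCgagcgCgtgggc
In this stretch H2ac18 differed at 1 base and H2ax at 10. Of the 290 runs of 50 bases in Hist1h2al, 196 also occur in the coding sequence of another member, so its counts are uncertain. These matches cover only the 339 GENCODE bases. The RefSeq locus is longer, and its other bases were not compared. As a share of the summed estimated counts of Hist1h2al, H2ac18 and H2ac19, Hist1h2al took 0.053% to 0.333% in CML and 5.7%, 9.75%, 9.77% and 10.6% in CML-TKI 1 to 4. Added together, the 3 rows had 391, 399, 384 and 1311 CPM in CML and 374, 702, 745 and 842 CPM in CML-TKI, and the groups overlapped. H2ac18 makes up most of this sum, so the overlap was set by that row and says nothing about Hist1h2al.

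The authors' counting split reads between copies in other rows as well. Values more than 1e-6 from a whole number made up 95.3% of the 536 member values and 17% of all other values. Hist1h2bq and Hist1h2br, whose coding sequences are identical, had the same value in every library, and H2ac18 had 30.1 times the estimated count of H2ac19 in 7 of 8 libraries and 24.2 times in CML 3. Of the 65 members with a coding sequence, 8 had the coding sequence of another member, and 50 shared at least 50% of their 50-base runs with another. Levels of single rows are less certain for this reason.

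The 19 H2B rows summed to 1583, 1647, 1485 and 5144 CPM in CML and to 1377, 2784, 2292 and 2779 CPM in CML-TKI, with a log2 ratio of means of -0.09, and of 0.54 without CML 5. Hist1h2bq and Hist1h2br each had 228, 235, 202 and 734 CPM and then 177, 281, 258 and 354 CPM (log2 fold change -0.39 ± 0.43, SE, edgeR adjusted p = 0.622). H2bc6 had 173, 188, 167 and 584 CPM and then 152, 249, 186 and 250 CPM (log2 fold change -0.41 ± 0.42, SE, edgeR adjusted p = 0.592). CML 5 was again the highest and CML-TKI 1 the lowest of the 8 libraries in these rows. Without CML 5 the log2 fold changes were 0.26 and 0.24 (edgeR adjusted p = 0.548 and 0.536). H2bc21, the H2B gene known from olfactory neurons as H2be, was another row in which CML 5 stood out little, with 11.9, 9.78, 10.4 and 16.5 CPM in CML and 5.66, 3.08, 6.53 and 10.1 CPM in CML-TKI. Its log2 fold change of -0.94 ± 0.48 (SE) did not pass the test (edgeR adjusted p = 0.26), and without CML 5 it was -0.76. H2bc1, the testis H2B, was low, with 0.541, 1.34, 0.384 and 4.78 CPM in CML and 7.17, 3.39, 0 and 3.36 CPM in CML-TKI, and the groups overlapped.

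H3 and H4 form the core tetramer of the nucleosome. The 12 H3 rows summed to 1985, 2077, 1831 and 7104 CPM in CML and to 2196, 3707, 3509 and 4078 CPM in CML-TKI, and the 13 H4 rows to 1333, 1433, 1296 and 4946 CPM and then 1552, 2630, 2227 and 2852 CPM. In these classes, unlike H1, H2A and H2B, every CML-TKI library was above CML 1, 2 and 3. As in every class, CML 5 was above every CML-TKI library. The log2 ratios of means were 0.05 and 0.04, and 0.77 and 0.76 without CML 5. That the classes differ was not tested.

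Among H3 rows, H3c2 had 354, 369, 316 and 1310 CPM in CML and 350, 643, 463 and 863 CPM in CML-TKI (log2 fold change -0.02 ± 0.49, SE, edgeR adjusted p = 0.986). H3c6 had 276, 239, 252 and 855 CPM and then 237, 425, 416 and 411 CPM (-0.12 ± 0.43, adjusted p = 0.891). H3c13 had 204, 232, 193 and 729 CPM and then 357, 441, 515 and 615 CPM (0.50 ± 0.43, adjusted p = 0.51). In H3c13 all CML-TKI libraries, CML-TKI 1 included, were above CML 1 to 3, which was not so in H3c2 or H3c6. Without CML 5 its log2 fold change was 1.19 ± 0.21 (SE, edgeR adjusted p = 0.0201), while H3c2 was at 0.73 and H3c6 at 0.53 (adjusted p = 0.182 and 0.201). H3c8 had the lowest unadjusted p of the family after Hist1h2al, with 64.1, 61.4, 54 and 157 CPM in CML and 106, 221, 163 and 137 CPM in CML-TKI. Its log2 fold change was 0.90 ± 0.38 (SE, edgeR adjusted p = 0.171), and 1.38 ± 0.27 without CML 5 (adjusted p = 0.0253).

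Among H4 rows, H4c4 had 229, 246, 224 and 885 CPM in CML and 250, 353, 293 and 394 CPM in CML-TKI (log2 fold change -0.29 ± 0.45, SE, edgeR adjusted p = 0.736). Hist1h4n had 184, 194, 182 and 610 CPM and then 305, 393, 278 and 488 CPM (0.32 ± 0.42, adjusted p = 0.679), and H4c3 had 164, 162, 159 and 574 CPM and then 150, 305, 252 and 353 CPM (-0.00 ± 0.46, adjusted p = 0.999). CML-TKI libraries of H4c4 and Hist1h4n lay between CML 1 to 3 and CML 5. Without CML 5, Hist1h4n (log2 fold change 0.97, edgeR adjusted p = 0.0418), H4c2 (1.30, adjusted p = 0.0377) and H4c14 (1.39, adjusted p = 0.0479) were called higher, while H4c4 (0.46, adjusted p = 0.184) and H4c3 (0.70, adjusted p = 0.176) were not.

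**Figure D3:**
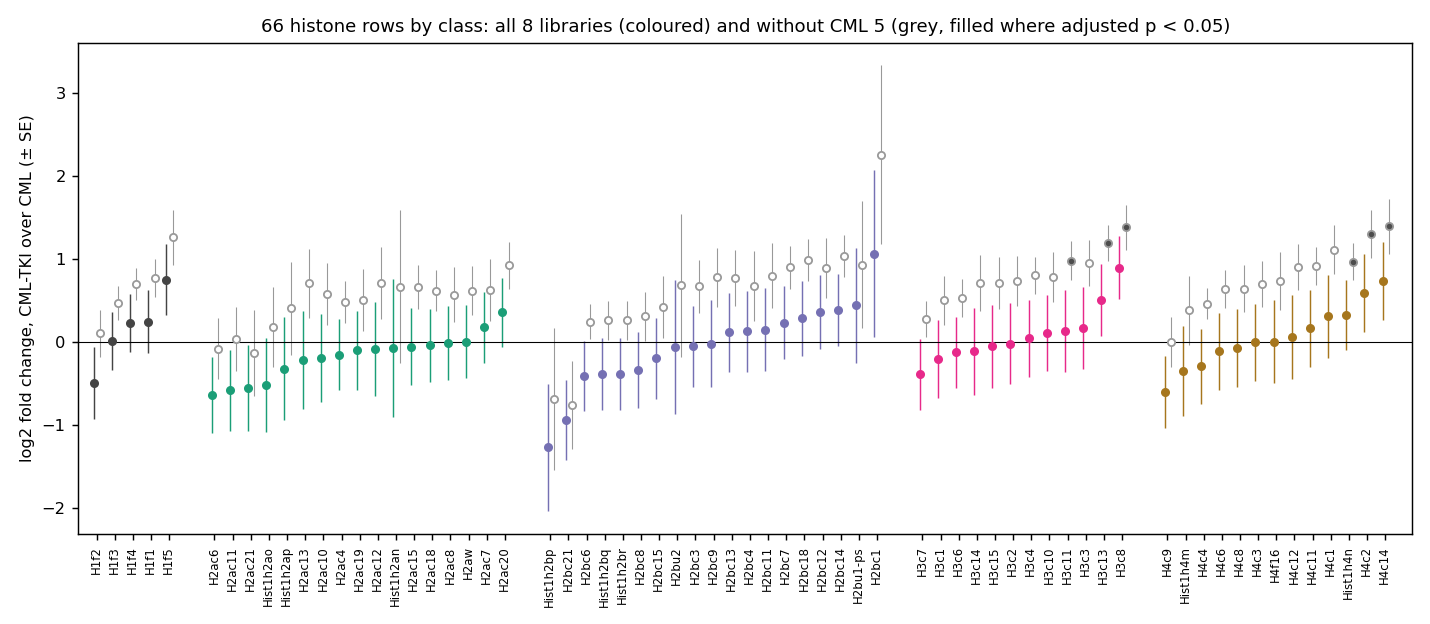
Log2 fold change of CML-TKI over CML with its SE for 66 histone rows (Hist1h2al left out), ordered within each class, on all 8 libraries in colour and without CML 5 in grey. Coloured points lie around 0 and none was called, grey points lie mostly above 0 and 6 of them, in H3 and H4, are filled as called.

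Shares within a class do not depend on the level of the class in a library, so CML 5 can be read beside CML 1 to 3. In 18 of the 67 rows (26.9%) the share of the class sum did not overlap between the groups, 9 higher and 9 lower in CML-TKI, while 23.4% of all genes did not overlap in CPM. The share of rows is thus near that background, shares within a class depend on each other, and they were not tested. H4c2 held 5.27%, 5.09%, 4.96% and 5.01% of the H4 sum in CML 1, 2, 3 and 5 and 6.05%, 7.31%, 9.24% and 6.89% in CML-TKI 1 to 4. H4c4 went the other way, with 17.2%, 17.2%, 17.3% and 17.9% in CML and 16.1%, 13.4%, 13.2% and 13.8% in CML-TKI. H2bc14 held 4.30%, 4.65%, 4.68% and 4.58% of H2B in CML and 6.61%, 6.67%, 6.70% and 5.69% in CML-TKI. H3c13 held 10.3%, 11.2%, 10.5% and 10.3% of H3 in CML and 16.3%, 11.9%, 14.7% and 15.1% in CML-TKI, and H3c7 held 12.9%, 13.4%, 12.7% and 12.1% and then 10.5%, 8.89%, 7.94% and 9.94%. For these 5 rows CML 5 lay close to the other CML libraries, although its class sums were 2.76 to 3.65 times theirs. That was not so in every row, as H3c8 held 3.23%, 2.95%, 2.95% and 2.21% of H3 in CML 1, 2, 3 and 5.

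**Figure D4:**
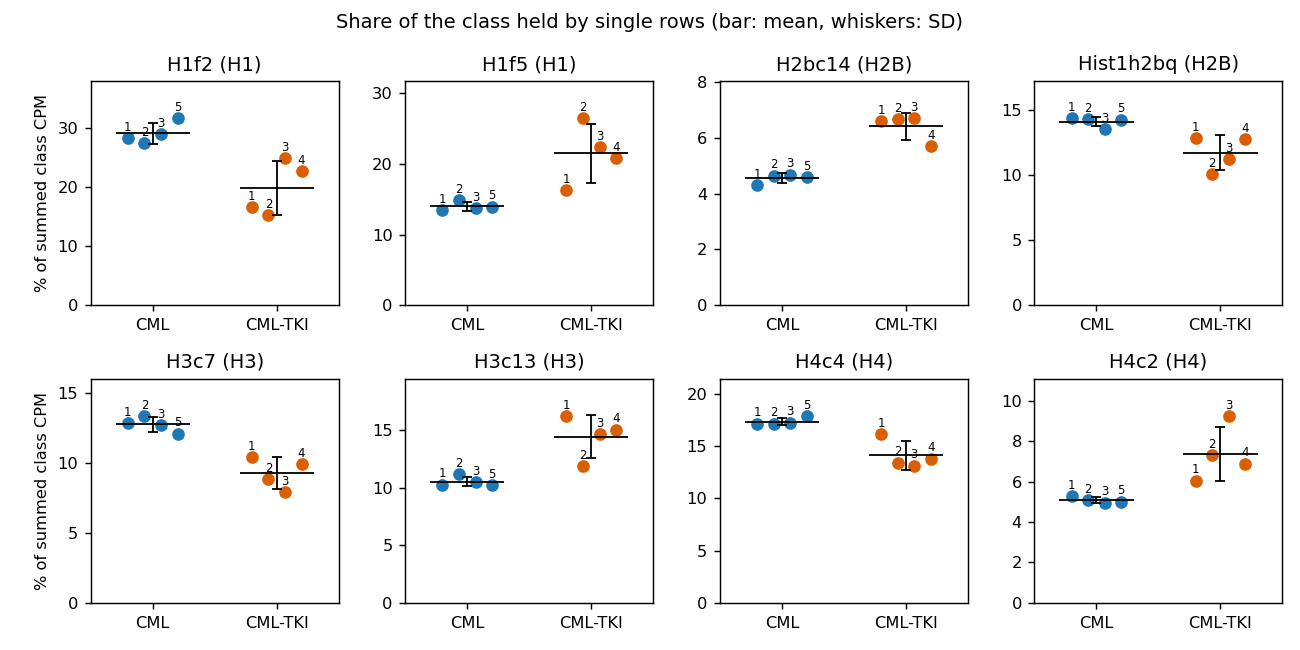
Percent of the summed CPM of its class held by each of 8 histone rows, with library numbers beside the points, group means as bars and SDs as whiskers. CML 5 sits beside CML 1 to 3 and the groups do not overlap in any of the 8 rows, which were chosen for that after their values were seen.

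Medians were also taken by position, without a test. The 23 rows at 21.7 to 22 Mb and the 29 at 23.5 to 23.9 Mb of chromosome 13 had median log2 fold changes of -0.07 and -0.02, and the 10 Hist2 rows -0.05. Rows annotated over 100 bases past the stem-loop had a median of -0.04 (22 rows), and the other rows with a stem-loop also -0.04 (23 rows), with CML 5 at a median of 3.36 times CML 1 to 3 in both. The 3 Hist3 rows on chromosome 11 were the only cluster in which CML-TKI 1 was never the lowest CML-TKI library, and its median there was 2.91 times CML 1 to 3.

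Proteins that make, process and deposit histones were read from lists. Of 21 genes for histone mRNA processing and decay, 0 were called in either direction by edgeR, with a median log2 fold change of -0.00. Slbp had 39.9, 43.5, 38 and 50.3 CPM in CML and 51.5, 148, 41.4 and 80.9 CPM in CML-TKI (log2 fold change 0.91, adjusted p = 0.156). Npat, which activates histone gene transcription, had 89.6, 93.2, 86.2 and 33.9 CPM and then 96, 111, 82.8 and 98.5 CPM, and Casp8ap2, of the same nuclear body, had 82.7, 96.5, 75.1 and 8.61 CPM and then 96.2, 88.1, 59.9 and 130 CPM. In both, CML 5 was the lowest library, unlike in the histone rows. Over the 21 genes, CML 5 was the lowest CML library in 12 and the highest in 6, among them Lsm10 with 13.4, 11.7, 9.41 and 18.3 CPM. Lsm10 and Lsm11, of the U7 particle that cuts histone pre-mRNA, had log2 fold changes of -0.63 and 0.28 (edgeR adjusted p = 0.406 and 0.524). Without CML 5 also 0 of the 21 were called, and 3 had an unadjusted p under 0.05.

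Of 11 replication-independent variants tested, 0 were called higher and 2 lower, with a median of 0.10. H3f3b, 1 of the genes for the replacement histone H3.3, had 430, 431, 464 and 652 CPM in CML and 319, 327, 192 and 202 CPM in CML-TKI, with no overlap and a log2 fold change of -0.92 ± 0.26 (SE, edgeR adjusted p = 0.049). H3f3a, which codes for the same protein, had a log2 fold change of 0.10 (adjusted p = 0.814). H1f10, an H1 variant, had 15.8, 18.4, 12.7 and 36.6 CPM and then 6.98, 1.23, 0 and 1.81 CPM, with a log2 fold change of -2.86 ± 0.77 (SE, edgeR adjusted p = 0.0446). H1f10 passed the filter on low counts only through the CML libraries, so it could enter the test only if it differed. H1f0, the linker histone of cells that stop dividing, was lower without passing the test (log2 fold change -1.63, adjusted p = 0.113). H2ax, the variant phosphorylated at DNA breaks, whose annotated transcripts also hold the stem-loop, had 63.2, 73.8, 63.6 and 197 CPM in CML and 83.2, 114, 120 and 178 CPM in CML-TKI. It was highest in CML 5 and did not pass the test (log2 fold change 0.31, edgeR adjusted p = 0.68). This was not particular to H2ax. CML 5 was the highest CML library in all 11 variants tested, at a median of 1.48 times the mean of CML 1 to 3. The estimates of H2az1, Macroh2a1 and Cenpa were 0.35, 0.74 and 0.62, and none passed (adjusted p = 0.409, 0.17 and 0.131). Without CML 5, 0 of the 11 variants were called by edgeR and 6 had an unadjusted p under 0.05, with H3f3b at -0.77 (adjusted p = 0.0882) and H1f10 at -2.49 (adjusted p = 0.131). The other 4 of the 6 had estimates above 0, with H2ax at 0.88 (adjusted p = 0.0927), Macroh2a1 at 0.84 (0.176), Cenpa at 0.78 (0.0652) and H2az1 at 0.53 (0.134).

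Of 27 histone chaperones, 1 was called higher and 1 lower, with a median of 0.29. Asf1b, which hands new H3 and H4 to the fork, had a log2 fold change of 1.19 (edgeR adjusted p = 0.037). Chaf1b, a subunit of chromatin assembly factor 1, had -1.18 (adjusted p = 0.0355), whereas its partner Chaf1a had 0.69 (adjusted p = 0.121) and the H3 and H4 carrier Nasp 0.90 (adjusted p = 0.0734). Without CML 5, Asf1b was called (1.33, adjusted p = 0.0484) and Chaf1b was not (-1.15, adjusted p = 0.0767).

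Of 46 genes for DNA replication in S phase, 5 were called higher and 0 lower, with a median of 0.27. They were Rrm2, a subunit of ribonucleotide reductase (log2 fold change 2.13, edgeR adjusted p = 0.0038), E2f2 (2.91, 0.00334), Ccne1 (1.97, 0.00627), Dbf4 (1.14, 0.0163) and Ccna2 (0.95, 0.0262). Pcna, the sliding clamp, had a log2 fold change of 0.06 (adjusted p = 0.907) and the helicase subunit Mcm2 -0.30 (adjusted p = 0.4). Rrm2 had 50.7, 49.9, 48.4 and 55.5 CPM in CML and 102, 322, 268 and 207 CPM in CML-TKI, with no overlap. Of 27 genes of G2 and mitosis, 5 were called higher and 0 lower, with a median of 0.89. They were Foxm1, Birc5, Aurka, Plk1 and Bub1, with Birc5 at a log2 fold change of 1.75, Bub1 at 1.24, Aurka at 1.17 and Plk1 at 1.15. Mki67 (1.17, adjusted p = 0.262), Top2a (0.98, 0.104) and Cdk1 (0.40, 0.323) did not pass. Of 16 genes of cell cycle exit, 1 was called higher and 1 lower, with a median of 0.34: Cdkn1a (3.27, edgeR adjusted p = 0.011) and Cdkn1c (-4.41, adjusted p = 0.0269), both inhibitors of cyclin-dependent kinases. Cdkn1c had 1.51, 0, 0 and 0 CPM in CML-TKI 1 to 4 and passed the filter on low counts only through CML. Cdkn1a, with 1.62 to 3.65 CPM in CML, passed it only through CML-TKI. Both could enter the test only if they differed, and their folds are poorly set. Without CML 5, 4 S phase genes were called higher, with Ccna2 at 0.87 (edgeR adjusted p = 0.0515), and 6 genes of G2 and mitosis, with Top2a added (0.70, adjusted p = 0.0433). Cdkn1a was then called (adjusted p = 0.0425) and Cdkn1c was not (adjusted p = 0.081).

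CML 5 was also compared with CML 1 to 3 in the lists, as a description. Summed over its 46 genes, the S phase list stood in CML 5 at 1.01 times the mean of CML 1 to 3, and the G2 and mitosis list at 0.522 times. These sums hide genes that went both ways. CML 5 was above the mean of CML 1 to 3 in 28 of the 46 S phase genes (median ratio 1.14) and in 14 of the 27 genes of G2 and mitosis (median ratio 1.03). Among the latter, Mki67 had 626, 718, 662 and 52.3 CPM and Top2a 405, 436, 419 and 133 CPM in CML 1, 2, 3 and 5, whereas Plk1 had 34, 36.6, 34.6 and 50.7 CPM and Birc5 9.61, 14.2, 11.7 and 22.4 CPM. RNAs without a conventional poly(A) tail, Rn45s left out, summed to 4.77 times in CML 5, and Rn45s itself stood at 2.19 times. Among them Rmrp, the RNA of RNase MRP, had 1363, 1254, 1189 and 7198 CPM in CML, and Rpph1, the RNA of RNase P, had 1572, 1560, 1424 and 5913 CPM. In CML-TKI 3 these RNAs summed to 3.27 times the mean of CML 1 to 3, while the histone rows stood at 1.64 times, below CML-TKI 2 and 4 at 1.84 and 1.95. The sum does not stand for each of these RNAs. In CML-TKI 3 Rmrp had 5955 CPM and Rpph1 2160 CPM, and Rn45s stood at 1.24 times. The part of these RNAs in the histone levels was not tested.

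**Figure D5:**
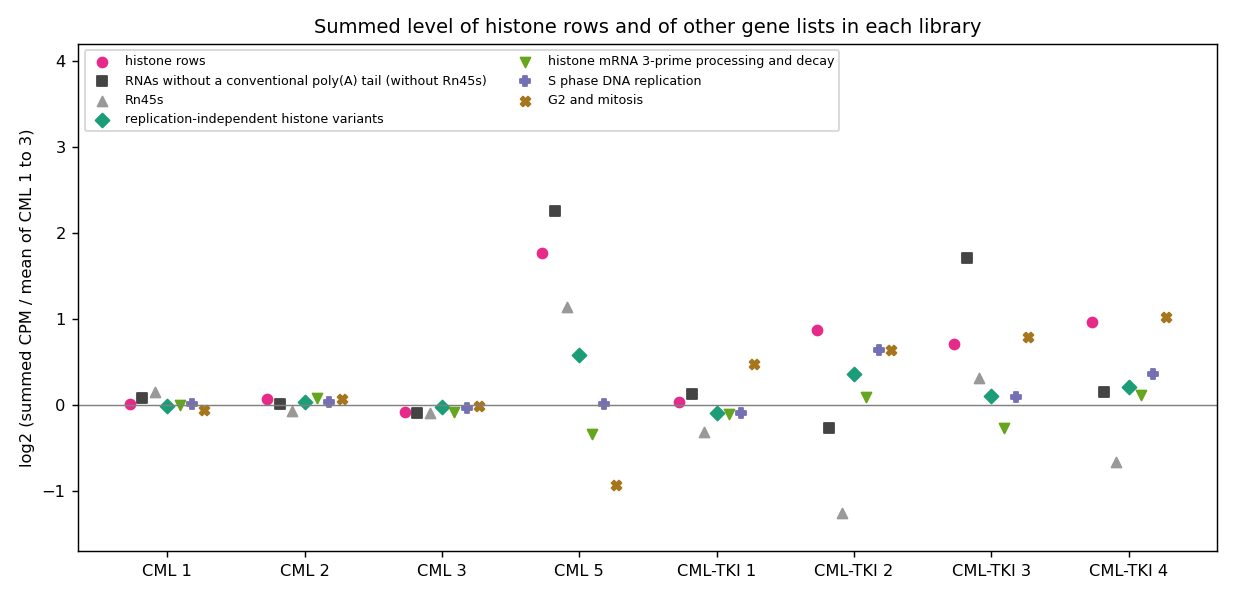
Log2 of the summed CPM of the histone rows and of 6 other sets over their mean in CML 1 to 3, for each library. In CML 5 the histone rows, the RNAs that lack a conventional poly(A) tail, Rn45s and the replication-independent variants lie above 0. The summed S phase list lies at 0 and the summed G2 and mitosis list below it, although 14 of its 27 genes were higher in CML 5 than in the mean of CML 1 to 3.

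Markers of cell types also moved between the groups. Of 9 HSC markers tested, 0 were called higher and 4 lower in CML-TKI, and the 10 in the table summed to 1417 to 1571 CPM in CML and 48.3 to 449 CPM in CML-TKI. The 4 were Gata2 (log2 fold change -2.32, edgeR adjusted p = 0.00418), Slamf1 (-3.42, 0.00797), Meis1 (-3.07, 0.0102) and Hlf (-3.64, 0.0303). Of 12 granulocyte markers 11 were called higher and 0 lower, summing to 152 to 256 CPM in CML and 1464 to 8513 CPM in CML-TKI, with Ctsg (7.91), Elane (8.26), Prtn3 (4.76) and Ms4a3 (6.62) having the smallest adjusted p. Of 8 monocyte and macrophage markers 7 were called higher and 0 lower, summing to 229 to 317 and 1347 to 6908 CPM, with Ccr2 (8.04), F13a1 (8.02), Csf1r (6.75) and Irf8 (5.26) having the smallest adjusted p. Of 7 megakaryocyte markers 3 were called lower (Gp9, Itga2b and Gp5) and 0 higher, with sums of 1254 to 1558 CPM in CML and 50.2 to 614 CPM in CML-TKI. Some of these markers, such as Ctsg and Ms4a3 with means of 1.24 and 1.65 CPM in CML, passed the filter on low counts only through CML-TKI. Others, such as Slamf1 and Gp9, both at 0.616 CPM in CML-TKI 2, passed it only through CML. Such markers could enter the test only if they differed, and their folds are poorly set. Without CML 5 the calls were 3 of 9 HSC markers and 1 of 7 megakaryocyte markers lower, and 8 of 12 granulocyte and 6 of 8 monocyte and macrophage markers higher.

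For these marker lists CML-TKI 1, the CML-TKI library with the lowest histone sum, was the lowest of the 4 CML-TKI libraries in granulocyte and monocyte markers and the highest in HSC markers. Erythroid markers summed to 105 to 179 CPM in CML, and to 64.5, 92.4, 49027 and 541 CPM in CML-TKI 1 to 4, with 0 of 7 called. Lymphoid markers summed to 18 to 23.2 CPM in CML and 21.3 to 262 CPM in CML-TKI, the highest in CML-TKI 3, with Cd3e and Cd3g at 0 in all 4 CML libraries. Of the sort genes, Kit and Slamf1 were called lower (log2 fold change -1.92 and -3.42) and Cd48 higher (4.35, edgeR adjusted p = 0.00087), while Ly6a (-1.12, adjusted p = 0.373) and Flt3 (0.65, adjusted p = 0.522) did not pass. Without CML 5 the same 3 sort genes were called, and 0 of 7 erythroid and 0 of 2 lymphoid markers, of which 4 and 0 had an unadjusted p under 0.05 in edgeR. Kit had 1002, 952, 1017 and 759 CPM in CML and 276, 193, 289 and 230 CPM in CML-TKI. Slamf1, which codes for CD150, was present in all CML libraries at 28.8 to 37.5 CPM despite the CD150-negative sort label, and Cd48 stood there at 3.84 to 6.36 CPM. The part of other cell types in the histone levels was not tested.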

How the data were processed

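The authors isolated total RNA (RNeasy Plus mini kit) from sorted bone marrow cells and prepared Nextera XT libraries. Per the labels reads were processed with STAR 2.6.1d and Partek 8.0 on mm10, and the deposited values are estimated counts per gene without normalization. Whether strand was used is not stated. The members and lists were chosen with earlier results of these data known.

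Older symbols came from RefSeq. Estimated counts were rounded, and edgeR 4.0.16 (R 4.3.3) was used with TMM, filterByExpr (minimum count 10, minimum total 15) and the robust quasi-likelihood test of 4 CML-TKI against 4 CML libraries on 11937 genes. P-values were adjusted by Benjamini-Hochberg and called under 0.05. SEs are the log2 fold change over the square root of F. Class sums and shares are TMM-scaled CPM and were not tested. The procedure was tested on simulated counts with large fold changes. They held no outlying library and no reads shared between copies, so that test does not cover these traits of the data. Alternatives were DESeq2 1.42.0, limma 3.58.1 (voom with quality weights), other scalings, filters and thresholds, left-out libraries and a replicate block. The deviations of same-numbered libraries correlated at -0.0416, 0.0972 and 0.0934, so the numbers were not taken as pairs.

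Named were members past the threshold or with no overlap, the 3 most abundant of each class, fixed genes of the lists with the 4 smallest adjusted p among the genes called in each list, and the sort genes. Members and list genes named beyond these (Ccna2, Bub1, Rmrp, Rpph1, Cd3e and Cd3g), the gene windows and the pair of H2ac8 and H2bc8 were chosen after values were seen. Sequences are from GENCODE M21 and RefSeq, both GRCm38, the assembly of mm10. Promoters were found for 60 of 67 members.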

Additional observations from a re-analysis of the deposited data

Results flagged for a closer look

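The summed CPM of each histone class had CML 5 far above the other 3 CML libraries. The gap from CML 5 to the next library, as a share of the group's whole range, was 0.945 for H1, 0.977 for H2A, 0.956 for H2B, 0.953 for H3 and 0.963 for H4, above Dixon's limit for 4 samples in each class. Among single rows, CML 5 was set apart on the high side in 59 of 67. In the CML-TKI group, CML-TKI 1 was set apart on the low side in 4 rows (H2ac20, H2bc15, H3c6 and H4c2) and on the high side in 1 (H2bu2). Chance alone sets apart about 1 in 20 groups, and the rows are not independent.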

How the results depend on the processing

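Over 19 alternatives Hist1h2al had log2 fold changes from 5.96 to 6.63 and adjusted p from 8.91e-22 to 0.0368. This is no sign of stability, since wherever low counts were filtered the row entered the test only through CML-TKI. That reason does not cover the fit with no filter beyond 1 count, where it had 6.23 (edgeR adjusted p = 0.000788). The number of members called was 20 with limma-voom and quality weights, 3 without a block on the 6 libraries numbered 1 to 3 (chosen after seeing the data), and 1 to 7 when each library was left out, 7 being without CML 5. It was 1 under every other alternative. The number of all genes called was 2157 with DESeq2, 2563 with limma-voom, 395 at an adjusted p under 0.01, 122 with CML 1 to 3 summed to 1 library, and 505 to 2504 with each library left out (2504 without CML-TKI 1). With the replicate block on libraries 1 to 3 of each group it was 193, against 589 without the block on the same libraries, and 1 member was called. The median log2 fold change of members was 0.66 with limma-voom and -0.22 to 0.68 with each library left out, the latter without CML 5. It was 0.47 with the replicate block and -0.54 with CML 1 to 3 summed. Class sums without CML 5 had log2 ratios of 0.77 for H3 and 0.76 for H4, and with each library left out -0.15 to 0.77 for H3 and -0.16 to 0.76 for H4. With CML 1 to 3 summed they were -0.32 for H1, -0.49 for H2A, -0.56 for H2B, -0.45 for H3 and -0.46 for H4, CML 5 being 1 of the 2 CML libraries in that fit. Counts of calls in the lists without CML 5 were added after seeing the data.

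These uncalled members changed the sign of their log2 fold change. With RLE size factors the values were -0.0097 for H1f3. With total counts as scaling the values were 0.075 for H2ac18, 0.060 for H2ac15, 0.13 for H3c2 and 0.13 for H4c3. With total counts less Rn45s the values were -0.15 for H1f3 and -0.036 for H3c11. Without a filter on low counts the values were -0.021 for H1f3. With a stricter filter the values were 0.015 for H4c3. With DESeq2 the values were -0.0096 for H1f3. With limma-voom the values were 0.12 for H1f2, 0.64 for H2ac18, 0.66 for H2ac15, 0.30 for Hist1h2br, 0.30 for Hist1h2bq, 0.27 for H2bc6, 0.76 for H3c2, 0.53 for H3c6, 0.49 for H4c4 and 0.73 for H4c3. With unrounded counts the values were 0.0021 for H4c3. With the replicate block the values were 0.46 for H2ac18, 0.51 for H2ac15, 0.094 for Hist1h2br, 0.094 for Hist1h2bq, 0.14 for H2bc6, 0.46 for H3c2, 0.46 for H3c6, 0.36 for H4c4 and 0.49 for H4c3. Without the block on the same libraries the values were 0.51 for H2ac18, 0.56 for H2ac15, 0.12 for Hist1h2br, 0.12 for Hist1h2bq, 0.17 for H2bc6, 0.50 for H3c2, 0.50 for H3c6, 0.37 for H4c4 and 0.55 for H4c3. With CML 1 to 3 summed the values were -0.36 for H1f3, -0.16 for H1f4, -0.076 for H2ac20, -0.14 for Hist1h4n and -0.41 for H3c11. With each library left out in turn they ranged from -0.15 to 0.47 for H1f3, -0.089 to 0.98 for H3c11, -0.67 to 0.11 for H1f2, -0.22 to 0.62 for H2ac18, -0.26 to 0.66 for H2ac15, -0.58 to 0.26 for Hist1h2br, -0.58 to 0.26 for Hist1h2bq, -0.60 to 0.24 for H2bc6, -0.28 to 0.73 for H3c2, -0.32 to 0.53 for H3c6, -0.50 to 0.46 for H4c4 and -0.19 to 0.70 for H4c3.

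The cause of these changes was not tested. Depth limits low rows most in CML-TKI 3, where 3 counts equal 2.88 CPM. Reads carry no molecular identifiers, and rows with near-identical copies are uncertain.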
